A study of Homo sapiens with 4 samples.

Results

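The genes followed here carry out the display of peptides by MHC class I molecules: the light chain B2M, the heavy chains HLA-B, HLA-C and HLA-E, the peptide transporter TAP1 and TAP2, its partner TAPBP (tapasin) and the inducible proteasome subunit PSMB9. CD74, the invariant chain of the class II pathway, was followed with them. These 9 genes were taken by symbol from a table of 36525 Ensembl genes, and 8 of them had a row. HLA-E was not analysed here. RPKM values are reads scaled to transcript length and to a read total, here the same for both libraries of a group. Of the 8, 2 (B2M and CD74) reached the filter of 1 RPKM as a mean of the libraries, and 6 stayed below it. The list is therefore described mainly through B2M, CD74 and the genes that act with them.

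The cells were LM2, a clonal lung metastatic derivative of the human breast cancer line MDA-MB-231, which has a mesenchymal form. There were 2 libraries of cells in which the splicing regulator hnRNPM was knocked down and 2 libraries of control cells, all collected 48 h after plating. The labels call the silencing agent an shRNA in one place and an siRNA in another, and do not describe the control agent. Nothing in the labels says whether the replicates were separate cultures, so p-values measure the spread between these libraries, which may be technical. In the deposited values this spread includes a difference in scale between replicates, given below.

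Class I molecules show the cell's own proteins to cytotoxic T cells. The proteasome cuts proteins into peptides, and the TAP transporter carries the peptides into the endoplasmic reticulum. There tapasin, calreticulin and ERp57 (PDIA3) hold the heavy chain and B2M until a peptide binds. Interferon-γ raises the genes of this pathway, partly through IRF1 and NLRC5. CD74 instead blocks the groove of class II molecules until they reach the endosome, and it is also a surface receptor for the cytokine MIF. Both B2M and CD74 have promoters bound by the RFX complex, with NLRC5 acting on class I genes and B2M, and CIITA on class II genes and CD74.

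The promoters of the 2 members with measurable levels are shown because NLRC5, CIITA and the RFX complex act at promoters, and the data hold levels of these regulators as well. Each covers 300 bases around the RefSeq start site, most of them before it, 5′ to 3′ on the gene's strand, in build GRCh38.p14 (chr15:44711267-44711566, plus strand, for B2M and chr5:150412861-150413160, minus strand, for CD74). RefSeq promoters were found for 8 of the 9 genes. Capitals mark matches, on either strand, to CCAAT (the NF-Y box), TGACG (part of a cAMP response element), the core of an interferon-stimulated response element (GAAA, any 2 bases, GAAA) and TTCNNNGAA (the core of a STAT site).
B2M: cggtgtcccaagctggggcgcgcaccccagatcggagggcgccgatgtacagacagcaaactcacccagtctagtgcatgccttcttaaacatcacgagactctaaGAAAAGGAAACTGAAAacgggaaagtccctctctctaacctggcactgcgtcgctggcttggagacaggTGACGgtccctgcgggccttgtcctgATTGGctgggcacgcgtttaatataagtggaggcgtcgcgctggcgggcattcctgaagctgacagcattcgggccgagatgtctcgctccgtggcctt
CD74: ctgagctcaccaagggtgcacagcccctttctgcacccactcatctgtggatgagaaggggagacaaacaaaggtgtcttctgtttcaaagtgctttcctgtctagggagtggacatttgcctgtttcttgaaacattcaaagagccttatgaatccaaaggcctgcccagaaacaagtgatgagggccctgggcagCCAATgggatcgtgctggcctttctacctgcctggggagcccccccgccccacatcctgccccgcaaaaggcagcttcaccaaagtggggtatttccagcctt
The B2M promoter held the interferon-response core at 2 overlapping places (at least 1 such core is in 3.65% of 27305 RefSeq promoters of 300 bases), 1 TGACG (25.0%) and 1 CCAAT on the minus strand (35.7%). The CD74 promoter held 1 CCAAT on the plus strand and 0 matches to the other letters searched. The STAT core was in neither window (7.88% of promoters). A match is a description of the letters and not a bound site. Letters of a site for the RFX complex were not searched, so the counts do not tell whether the promoters hold one.

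The targeted gene was low in the knockdown libraries: HNRNPM had 11.5 and 13.0 RPKM there, against 88.6 and 102 RPKM in control libraries. The LM2 line markers VIM (596 ± 48.2 and 704 ± 78.8 RPKM in knockdown and control libraries, SD, n = 2 each) and AXL (213 ± 16.5 and 217 ± 21.0 RPKM) were abundant, as was CD44 (53.6 ± 3.56 and 67.3 ± 6.47 RPKM). EPCAM was near 1 RPKM and ESR1 at most 0.0322 RPKM in any library. The epithelial cadherin CDH1 was below the filter and its groups did not overlap. It had 0.717 and 0.990 RPKM in knockdown libraries, against 0.0774 and 0.0629 RPKM in control libraries. Limma without a filter gave a log2 fold change of 1.24 ± 0.13 (SE, adjusted p = 0.0552). With median-ratio scaling besides, a setting added after the data were seen, the adjusted p of this limma fit was 0.00663. Of 12 leukocyte markers 11 had a row, and PTPRC, CD3E, ITGAM and LYZ stayed at or below 0.0191 RPKM in each library. CD3D was at 0 except for 0.0514 RPKM in control replicate 2. The summed level of the 11 ran from 13.3 to 16.3 RPKM in knockdown and from 27.6 to 30.8 RPKM in control libraries. CD68 and CD14 made up most of it in knockdown libraries and CD68 in control libraries. CD68 fell (8.22 ± 0.753 against 27.6 ± 2.12 RPKM, SD, n = 2 each). CD14 rose (6.20 ± 1.31 against 1.36 ± 0.116 RPKM). GENCODE 29 places another gene over the exons of CD68 on the same strand. With limma, 36.4% of 13627 tested genes were called at a Benjamini-Hochberg adjusted p under 0.05, 14.7% higher and 21.8% lower after knockdown, which is the background for every count below. Median-ratio size factors were 0.929 and 1.03 for the knockdown and 0.964 and 1.11 for the control libraries. Dividing by them gave 61.0% called, 31.1% higher and 30.0% lower, with a median log2 fold change of 0.004, against −0.069 without scaling. The median SE was 0.175 without scaling and 0.0544 with it. Calls made or missed without scaling are thus set against a spread that includes the difference in scale between replicates.

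Among the members that could be tested, CD74 fell and B2M was higher without passing the test. That is 1 of 2 called lower and 0 called higher, beside 21.8% and 14.7% of all tested genes, and 2 genes are too few to set against those shares. CD74 had 22.3 and 25.2 RPKM in knockdown libraries, against 56.3 and 65.7 RPKM in control libraries. Both knockdown libraries lay far below both control libraries. Means of 23.7 ± 2.02 and 61.0 ± 6.62 RPKM (SD, n = 2 each) put CD74 2.57-fold lower after knockdown, or −1.34 ± 0.17 on the log2 scale (SE; limma, adjusted p = 3.64e-13). A log2 fold change below this was found for 1.67% of the tested genes. By mean RPKM CD74 ranked at place 1427 of 13627 in knockdown and at place 371 in control libraries. The call was kept whichever library was left out (limma, adjusted p from 0.000187 to 0.0123) and with median-ratio scaling (−1.26, adjusted p = 0.000241). It was lost without a filter on low genes (adjusted p = 0.0527), a fit in which the smallest adjusted p of any gene was 0.0445. CD74 is also abundant in B cells and macrophages. The pan-leukocyte marker PTPRC was at or below 0.0158 RPKM in each library and the B cell marker CD79A at 0.241 RPKM in both knockdown and 0.0949 RPKM in both control libraries. Of the macrophage markers CD68 fell and CD14 rose, and CSF1R was at 0.0782 and 0.0913 RPKM in knockdown libraries, against 0.125 and 0.148 RPKM in control libraries. Their part in the level of CD74 was not tested. In RNA from whole cultures, fewer cells with the transcript and less of it per cell cannot be told apart.

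B2M had 171 and 193 RPKM in knockdown libraries, against 131 and 153 RPKM in control libraries. The groups did not overlap, though the gap between them was smaller than the difference between replicates within a group. The means were 182 ± 15.8 and 142 ± 15.3 RPKM (SD, n = 2 each), 1.28-fold higher, with a log2 fold change of 0.36 ± 0.17 (SE; limma, adjusted p = 0.0766). With median-ratio scaling it was 0.44 ± 0.02 (limma, adjusted p = 0.000519), so the call depends on how the libraries are scaled. Replicate 2 was higher in both groups, as its size factors were, so the SE without scaling includes that difference in scale. By mean level B2M ranked at place 75 of 13627 in knockdown and at place 87 in control libraries.

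A ratio of genes within a library is free of that library's depth. CD74 stood at 0.130 of B2M in both knockdown libraries, against 0.430 in both control libraries. The ratio in knockdown cells was 0.303 of that in control cells. Replicates of a group differed in this ratio by far less than the groups did, as the plot of ratios shows. The 2 genes thus changed unequally whichever scaling is used.

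**Figure D1:**
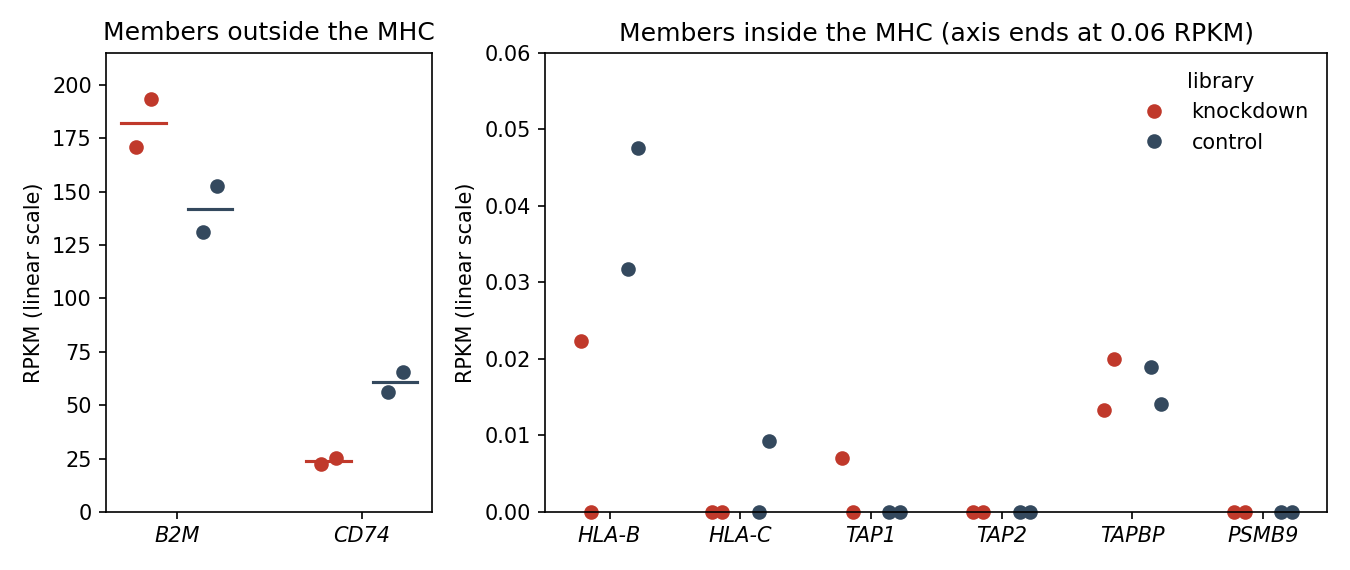
RPKM of the 8 members with a row in each library (points, red for knockdown and dark for control; lines in the left panel are group means, n = 2). CD74 is lower and B2M higher in both knockdown libraries, while the 6 members inside the MHC stay under 0.05 RPKM in all libraries.

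The heavy chains HLA-B and HLA-C, the transporter, tapasin and PSMB9 were listed at or near 0 in all 4 libraries. HLA-B, a classical heavy chain, had 0.0224 and 0 RPKM in knockdown libraries, against 0.0317 and 0.0476 RPKM in control libraries. HLA-C, another classical heavy chain, was listed at 0 in both knockdown libraries and in control replicate 1, with 0.00927 RPKM in control replicate 2. TAPBP had 0.0133 and 0.0200 RPKM in knockdown libraries, against 0.0189 and 0.0142 RPKM in control libraries. All of these correspond to a few reads, and no difference between the groups was detectable at such levels.

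TAP1 had 0.00711 RPKM in knockdown replicate 1 and was listed at 0 in the other 3 libraries. TAP2 and PSMB9 were listed at 0 in all 4. RPKM values of rare genes move in steps of 1 read, and 1 read was worth 1.41 times as much in knockdown as in control libraries. Read this way, the smallest whole numbers of reads that fit are 1 and 0 against 2 and 3 for HLA-B, 2 and 3 against 4 and 3 for TAPBP, and 1 in a single library for HLA-C and for TAP1. With GENCODE 29 exon lengths, in which an HLA-B exon overlaps one of HLA-C, HLA-B would have 2 and 0 against 4 and 6 reads. B2M, by the same lengths, had about 30861 and 34881 reads in knockdown and 33392 and 38918 in control libraries, and CD74 about 2106 and 2376 against 7515 and 8763.

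A count of 0 allows up to 3 reads, which for TAP2 is 0.0158 RPKM in a knockdown and 0.0112 RPKM in a control library, and for PSMB9 0.0329 and 0.0233 RPKM. Such limits cover counting error only, and hold for reads that the authors' counting kept, not for the transcript. No fold change is given for these 6 genes. Fitted without a filter, HLA-B, HLA-C, TAP1 and TAPBP had limma adjusted p-values of 0.287, 0.684, 0.740 and 0.989.

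All 7 of the HLA, TAP, TAPBP and PSMB9 members lie in the major histocompatibility complex on chromosome 6, and 6 of them had a row. Genes of other functions there were listed at or near 0 as well. In RefSeq's order, 151 protein-coding genes run from GABBR1 to ZBTB9, borders chosen after the values were seen, and 76 of them had a row. Of these 76, 39 were at 0 in all 4 libraries, 0 reached a mean of 1 RPKM and the highest single value was 0.133 RPKM, of HLA-DRB5. They include genes that every cell uses. RPS18, a protein of the small ribosomal subunit, had 0.0178 RPKM in knockdown replicate 2 and was listed at 0 in the other 3 libraries. The splicing helicase DDX39B reached at most 0.00333 RPKM and the kinase subunit CSNK2B at most 0.00501 RPKM, and the spliceosomal gene LSM2 and the histone methyltransferase gene EHMT2 were listed at 0 in all 4.

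Beyond these borders, genes with ordinary levels were found on both sides. Of the 40 nearest genes with a row before GABBR1, 12 (30.0%) had a mean of at least 1 RPKM, and of the 40 nearest after ZBTB9, 23 did, or 57.5%, against 57.2% of all 15985 protein-coding genes in the table. ITPR3, an inositol trisphosphate receptor just beyond ZBTB9, had 18.3 and 19.7 RPKM in knockdown and 19.4 and 22.3 RPKM in control libraries. B2M, on chromosome 15, and CD74, on chromosome 5, lie outside the complex. Per the submitters' processing notes the reads were aligned to hg19, which is distributed with additional haplotype copies of this complex. Nothing in the sources used here says whether those copies were in the alignment or how reads with several matches were handled, and their part in these values was not tested. With genes that every cell uses listed at 0 beside them, these values cannot be read as levels of HLA, TAP, tapasin or PSMB9 transcripts in LM2 cells, nor as an effect of the knockdown or its absence.

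**Figure D2:**
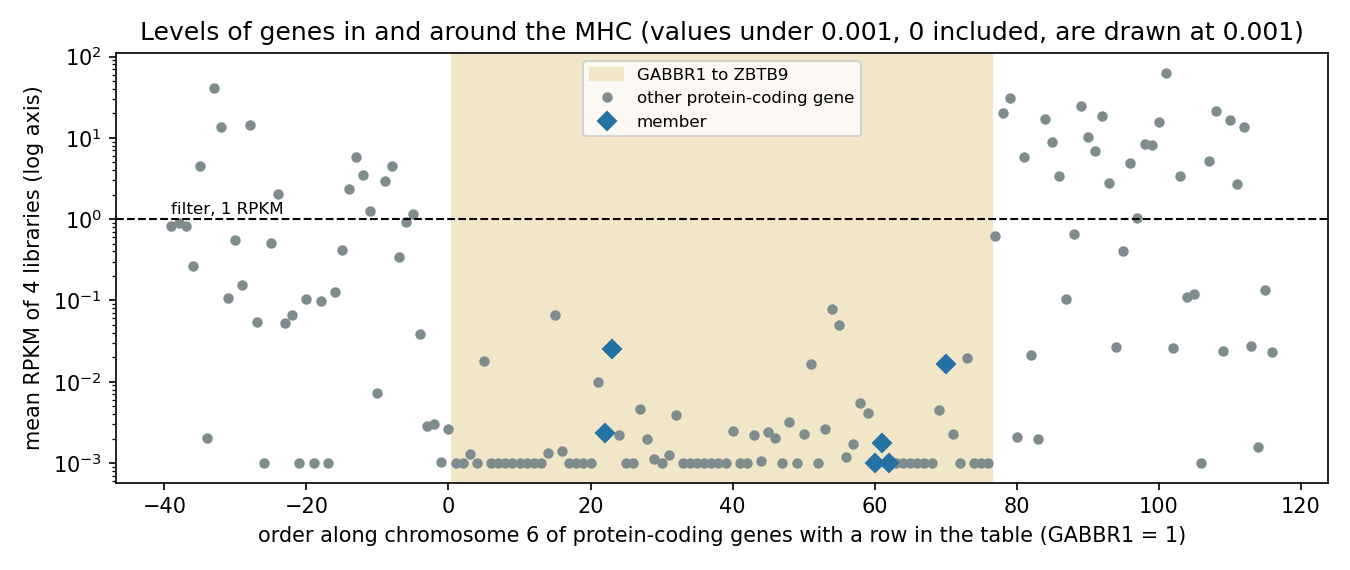
Mean RPKM of the 4 libraries (log axis) for protein-coding genes with a row, in their order along chromosome 6 around the MHC, with members as blue diamonds and the stretch from GABBR1 to ZBTB9 shaded. Of the 76 genes in the shaded stretch 0 reach 1 RPKM (dashed line), against 12 of 40 before it and 23 of 40 after it.

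Of 20 further genes of the proteasome and its assembly or activation, 17 had a row, and PSMB8, which lies in the complex beside PSMB9, had none. Of the 17, 16 were tested (median log2 fold change −0.02). The test called 0 higher, 1 lower and 15 neither, and with median-ratio scaling 7 higher and 5 lower, so how many differ depends on the scaling. The 1 called lower was PSMB10, the inducible partner of PSMB9 that replaces PSMB7 in the immunoproteasome. It had 13.8 and 14.5 RPKM in knockdown libraries, against 18.7 and 22.9 RPKM in control libraries (log2 fold change −0.53 ± 0.17, SE; limma, adjusted p = 0.00861). It did not pass without control replicate 2 (adjusted p = 0.195) or without either knockdown replicate (0.32 and 0.223). GENCODE 29 places another gene over its exons on the same strand.

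The constitutive PSMB7 was at 69.1 ± 5.05 and 71.4 ± 7.06 RPKM in knockdown and control libraries (SD, n = 2 each). PSMB10 relative to PSMB7 was 0.2099 and 0.1996 in knockdown libraries, against 0.2817 and 0.2993 in control libraries, with no overlap. The other constitutive catalytic subunits were PSMB6, which PSMB9 replaces (91.5 ± 5.65 and 99.7 ± 9.51 RPKM), and PSMB5 (71.7 ± 6.19 and 59.9 ± 5.54 RPKM). Neither passed (limma, adjusted p = 0.613 and 0.24), and PSMB5 did with median-ratio scaling (0.34, adjusted p = 0.000902). POMP, the maturation factor of the proteasome, was at 48.2 ± 4.02 and 37.1 ± 4.27 RPKM (limma, adjusted p = 0.0752, or 0.000699 after median-ratio scaling). PSME2, a subunit of the interferon-inducible activator PA28, was at 1.31 ± 0.153 and 1.92 ± 0.0519 RPKM (limma, adjusted p = 0.0728, or 0.0221 after median-ratio scaling). It was far below its partner PSME1 (39.7 ± 2.74 and 47.5 ± 5.01 RPKM, adjusted p = 0.255, or 0.0025 after median-ratio scaling). The symbol table holds 6 pseudogenes named after PSME2, so its level is uncertain. PSMA6, with 4 such pseudogenes, was at 0.362 ± 0.0847 and 0.323 ± 0.0913 RPKM.

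**Figure D3:**
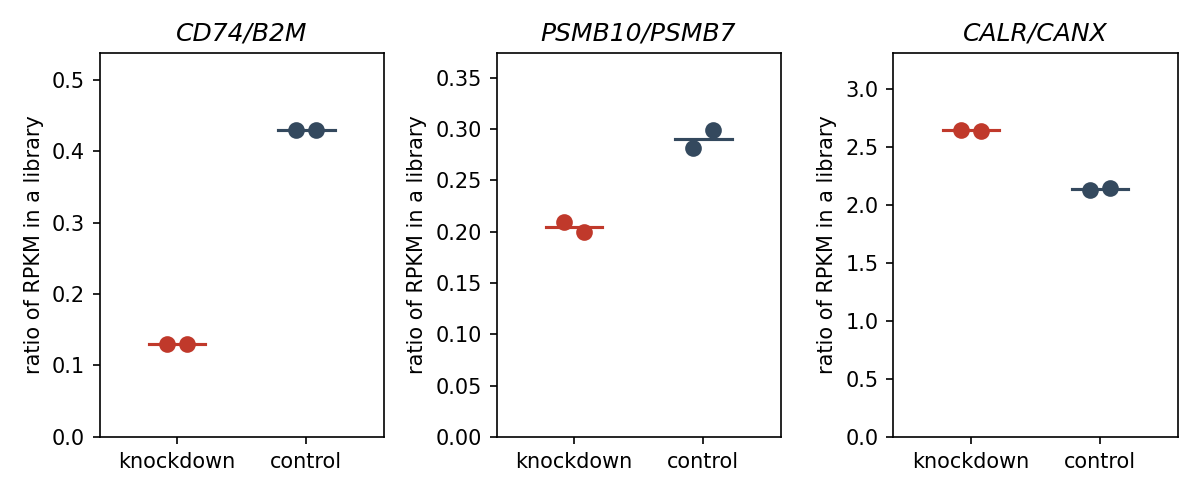
Ratio of the RPKM values of 2 genes within each library (points; lines are group means, n = 2 each), from 0. CD74/B2M and PSMB10/PSMB7 are lower and CALR/CANX higher in both knockdown libraries than in both control libraries.

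Of 11 peptide loading and trimming genes outside the complex, listed and in the table, 10 were tested. Their median log2 fold change was −0.07, equal to that of all tested genes. The test called 0 higher, 2 lower and 8 neither, against 2 higher and 3 lower with median-ratio scaling. Of all tested genes 36.4% were called, or 61.0% with median-ratio scaling, and 10 genes are too few to set against those shares. THOP1, a cytosolic peptidase that destroys peptides, fell 1.51-fold (14.2 ± 0.854 and 21.6 ± 2.41 RPKM in knockdown and control libraries, SD, n = 2 each; limma, adjusted p = 0.00413). TPP2, which trims long peptides, fell 1.39-fold (5.41 ± 0.0719 and 7.53 ± 0.925 RPKM; adjusted p = 0.037). TPP2 lost its call whichever library was left out (adjusted p from 0.0646 to 0.368), and THOP1 passed without control replicate 1 and failed in the other 3 such fits (adjusted p from 0.143 to 0.294). TAPBPL, a tapasin relative that edits peptides, was at 1.11 ± 0.0748 and 1.71 ± 0.233 RPKM (limma, adjusted p = 0.057, or 0.0117 after median-ratio scaling). It shares exon positions with CD27 and VAMP1.

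Of the chaperones of class I folding CALR and CANX were abundant. CALR (calreticulin) had 348 and 384 RPKM in knockdown libraries, against 277 and 324 RPKM in control libraries (log2 fold change 0.28 ± 0.16, SE; limma, adjusted p = 0.163); with median-ratio scaling it passed (0.37, adjusted p = 0.000433). CANX (calnexin), which folds free heavy chains, was at 138 ± 10.2 and 141 ± 14.4 RPKM. PDIA3 was at 6.44 ± 1.02 and 6.10 ± 0.653 RPKM (adjusted p = 0.793), and 2 pseudogenes are named after it. The ratio of CALR to CANX was 2.65 and 2.64 in knockdown libraries, against 2.13 and 2.15 in control libraries. ERAP1, which trims peptides in the endoplasmic reticulum, was at 10.8 ± 0.970 and 10.8 ± 0.970 RPKM.

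Of 27 regulators of the pathway listed, 24 were tested (median log2 fold change −0.05). The test called 5 higher, 4 lower and 15 neither, and with median-ratio scaling 9 higher and 9 lower. The share called is near that of all tested genes (36.4%). IFNGR1, the ligand-binding chain of the interferon-γ receptor, rose 2.17-fold, with 15.3 and 17.7 RPKM in knockdown libraries against 7.05 and 8.19 RPKM in control libraries (log2 fold change 1.07 ± 0.18, SE; limma, adjusted p = 1.98e-08).

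NLRC5, the transactivator of class I genes, was at 1.37 ± 0.0828 and 1.23 ± 0.140 RPKM (0.11 ± 0.20, SE; limma, adjusted p = 0.692), and IRF1, an interferon-induced transcription factor, at 5.36 ± 0.382 and 6.78 ± 0.684 RPKM (−0.31, adjusted p = 0.156). With median-ratio scaling IRF1 passed (−0.235, limma, adjusted p = 0.00603) and NLRC5 did not (0.0858). Among NF-κB subunits, NFKB2 (1.65-fold) and RELB (1.54-fold) rose and NFKB1 fell 1.78-fold (adjusted p = 0.000485, 0.00548 and 6.16e-05). EZH2 and EED, subunits of the repressive PRC2 complex, fell 1.65-fold and 1.59-fold (adjusted p = 0.000529 and 0.00402), while their partner SUZ12 did not pass (0.416, and 0.0254 with median-ratio scaling). ATF1, which can bind cAMP response elements, rose 1.36-fold (adjusted p = 0.0481), but passed in none of the 4 fits that leave out a library (0.0806 to 0.446). In those fits NFKB2 lost its call without knockdown replicate 1, knockdown replicate 2 or control replicate 1 (0.0558, 0.163 and 0.0834), and so did RELB (0.152, 0.17 and 0.134). NFKB1 lost it without knockdown replicate 1 (0.091), EZH2 without either knockdown replicate or control replicate 2 (0.0783 to 0.155), and EED without knockdown replicate 1 or control replicate 2 (0.319 and 0.138).

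RFX5, a subunit of the RFX complex, fell, and a link of its level to that of CD74 was not tested. It had 6.51 and 7.21 RPKM in knockdown libraries, against 11.9 and 13.4 RPKM in control libraries, without overlap (−0.84 ± 0.18, SE; limma, adjusted p = 1.49e-05). Its call was lost when knockdown replicate 1 was left out (adjusted p = 0.0638), and GENCODE 29 places 2 genes on the opposite strand over its exons. The other subunit past the filter, RFXANK, did not pass (−0.22, adjusted p = 0.338, and 0.0432 with median-ratio scaling), and RFXAP was below the filter (0.417 ± 0.0103 RPKM in knockdown libraries, and 0.621 RPKM in both control libraries).

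CIITA, the transactivator of class II genes, had 0.372 and 0.385 RPKM in knockdown libraries, against 1.30 and 1.77 RPKM in control libraries. Both knockdown values lay below both control values, and the means were 4.05-fold apart (0.379 ± 0.0093 and 1.53 ± 0.326 RPKM, SD, n = 2 each). Its mean over the 4 libraries fell just short of the filter. Without a filter limma gave a log2 fold change of −1.20 ± 0.16 (SE, adjusted p = 0.0619), and with median-ratio scaling besides, a setting added after the data were seen, −1.15 ± 0.11 (adjusted p = 0.00788). In GENCODE 29 its exons overlap those of 3 genes, among them a gene on the same strand. DEXI, on the opposite strand, was at 0.862 ± 0.0831 and 1.02 ± 0.382 RPKM.

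**Figure D4:**
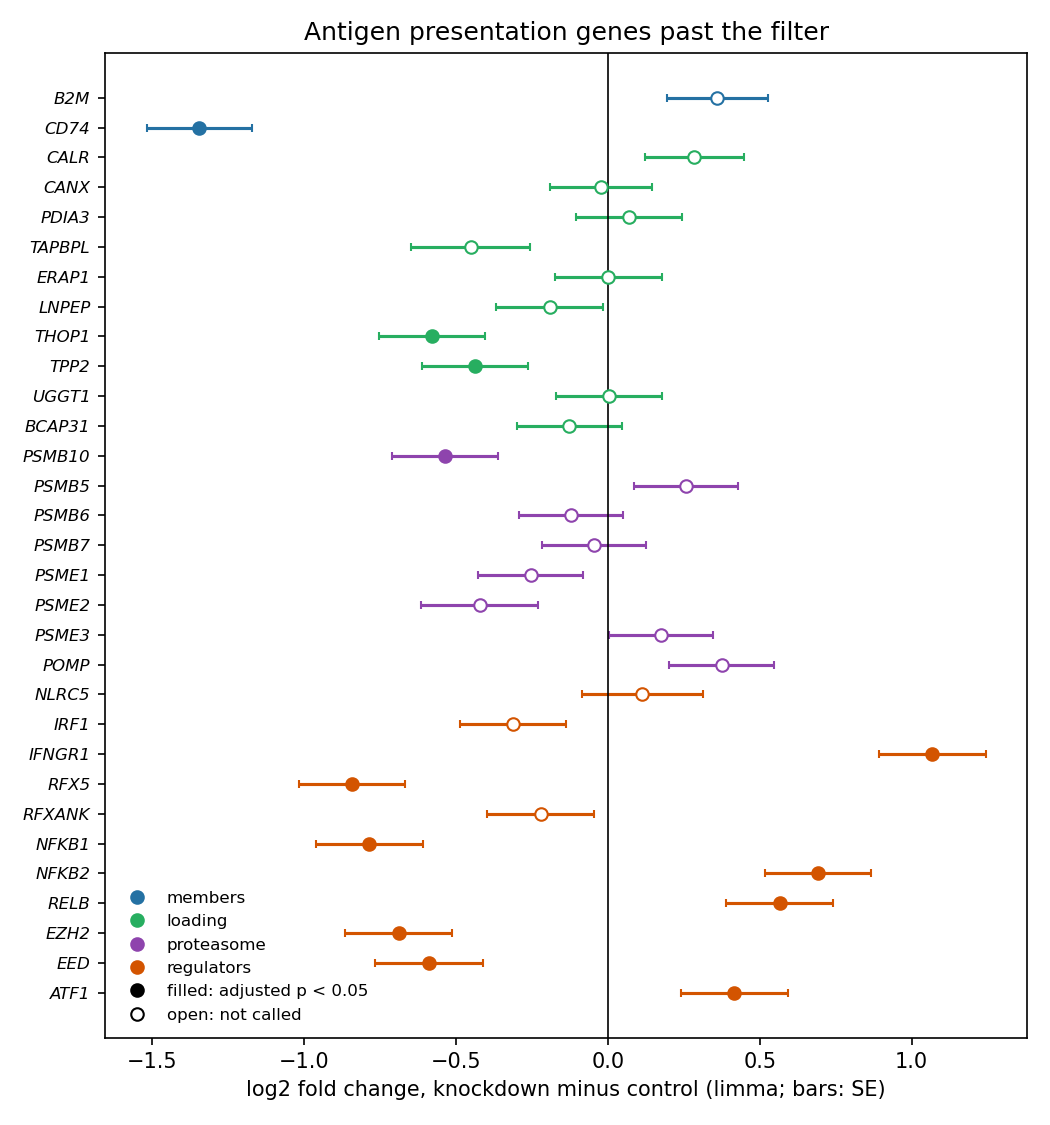
Log2 fold change, knockdown minus control, with SE (limma on log2(RPKM + 0.5)), of the 2 members past the filter and of the tested loading genes and a selection of tested proteasome and regulator genes; filled points passed at an adjusted p under 0.05. CD74 lies at −1.34, left of every other gene drawn, and B2M at 0.36, open.

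CD74's own partners in the class II pathway could be followed only in part, since 10 of 17 listed genes had a row and 5 were tested, of which 0 were called higher, 1 lower and 4 neither (2 higher and 2 lower with median-ratio scaling). CTSS (cathepsin S), the protease that cuts the last fragments of CD74 in antigen-presenting cells, fell 1.84-fold to 0.825 ± 0.0164 RPKM in knockdown libraries, against 1.52 ± 0.0776 RPKM in control libraries (limma, adjusted p = 0.00969). It did not pass without control replicate 2 (adjusted p = 0.0717) or without either knockdown replicate (0.0618 and 0.0709). CTSL, a related protease, was at 16.7 ± 1.07 and 14.5 ± 1.91 RPKM, and SPPL2A, which cleaves CD74 within the membrane, at 4.16 ± 0.261 and 3.13 ± 0.294 RPKM (adjusted p = 0.381 and 0.0971). CTSL and SPPL2A passed with median-ratio scaling (limma, adjusted p = 0.00433 and 0.0025).

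The 3 tested genes whose values over the 4 libraries were most like those of CD74, by Euclidean distance of centred log2 values, were AMOTL1 (0.036), SLC43A1 (0.0382) and RAB27A (0.0431). AMOTL1 had 4.58 and 5.16 RPKM in knockdown libraries, against 12.1 and 13.8 RPKM in control libraries. With 4 libraries in 2 groups such likeness reflects mainly the size of the change.

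Of 7 other genes with a class I heavy chain fold, HLA-F and HLA-G lie in the complex and were at or near 0 like the members there. FCGRT, the neonatal Fc receptor, which pairs with B2M, fell 1.84-fold (1.26 ± 0.0958 and 2.33 ± 0.333 RPKM in knockdown and control libraries, SD, n = 2 each; limma, adjusted p = 0.00182), though not without control replicate 2 or knockdown replicate 1 (0.0723 and 0.0788). HFE, the hemochromatosis protein, which also pairs with B2M and lies on chromosome 6 outside the stretch at 0, was at 1.26 ± 0.239 and 1.27 ± 0.0684 RPKM. MR1, which presents vitamin metabolites to T cells, was below the filter at 0.493 ± 0.00257 and 0.263 ± 0.0146 RPKM.

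Of 14 ligands that T cells and NK cells read beside class I, 7 were tested (median log2 fold change 0.30). The test called 1 higher, 1 lower and 5 neither, and with median-ratio scaling 5 higher and 1 lower. Of all tested genes 14.7% were called higher and 21.8% lower, and 31.1% and 30.0% with median-ratio scaling. These 7 genes are too few to set against those shares. CD274 (PD-L1) fell 3.05-fold, with 0.780 and 0.993 RPKM in knockdown libraries against 2.59 and 2.83 RPKM in control libraries (−1.21 ± 0.19, SE; limma, adjusted p = 5.25e-09). NECTIN2, a ligand of the NK receptor DNAM-1, rose 1.56-fold to 29.4 ± 2.57 RPKM in knockdown libraries, against 18.9 ± 1.90 RPKM in control libraries (adjusted p = 0.0016), and lost its call whichever library was left out (adjusted p from 0.0535 to 0.262). GENCODE 29 places a gene on the opposite strand over its exons. PVR, another ligand of that receptor, was at 23.5 ± 1.35 and 18.2 ± 2.23 RPKM (limma, adjusted p = 0.0885, or 0.00115 after median-ratio scaling). MICA and MICB, stress ligands encoded beside HLA-B, were at or near 0 like the rest of the complex.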

How the data were processed

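RNA-seq was done on 4 LM2 libraries, 2 after hnRNPM knockdown and 2 controls. The authors deposited 1 table of RPKM values with 1 column per library, and 0 columns were left unused. Reads were aligned with Bowtie 0.12.7 to hg19, per the submitters' processing notes. Nothing in the sources used here gives the counting program, its annotation or its use of strand. A current symbol table or GENCODE 29 gave names to 32308 of 36525 gene IDs. RPKM hides depth, but steps among low values correspond to read totals of 29.7 M for both knockdown and 41.9 M for both control libraries. The libraries of a group were thus scaled to the same total, which leaves differences in depth between replicates in place. Summed RPKM was 163078 and 180958 in the knockdown and 162466 and 187293 in the control libraries.

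After a filter at a mean of 1 RPKM, 13627 genes entered the tests as log2(RPKM + 0.5), using limma 3.58.1 in R 4.3.3 (group alone, variance trend, Benjamini-Hochberg adjustment over all tested genes, threshold 0.05, two-sided). This scale understates the change of low genes. The smallest p-values rest on variance that limma pools over genes. An exact permutation test of 2 against 2 libraries cannot pass, so none was run. The code was tested on simulated data.

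The members, gene lists and tests were chosen with earlier results of these data known. Named were all members, HNRNPM, catalytic proteasome genes, NLRC5, CIITA, IRF1, up to 4 genes per list with the smallest p, and the 3 genes most like the member that changed most. Some genes the rule covers are not reported here. Other named genes, those of the lists and of chromosome 6 among them, were chosen after their values were seen. The lists cover other heavy chains, loading, proteasome, regulators, class II, surface ligands, leukocyte markers and line markers. Alternatives were other scaling, pseudocounts, filters, variance models, a replicate block, a minimum fold and leaving out each library.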

Additional observations from a re-analysis of the deposited data

How the results depend on the processing

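CD74 was called lower in 12 of 13 alternatives, the exception being the fit without a filter (0 members lower), and B2M was called higher in 3 (1 member higher with median-ratio scaling, with the replicate block and without a filter but with median-ratio scaling). The last of these settings was added after the data were seen. Log2 fold changes of CD74 ran from −1.452 to −1.233 and of B2M from 0.251 to 0.471 when a library was left out. Over all genes, calls were 2000 higher and 2964 lower as reported. They were 4235 higher with median-ratio scaling, 262 higher and 255 lower without a filter, 1047 and 1321 with the filter at 5 RPKM, 360 and 479 with a minimum fold of 1.5, and 4467 higher without a filter but with median-ratio scaling. Leaving out 1 library gave 759 to 1158 higher and 1057 to 2007 lower. The replicate number as a block gave 3109 higher and 4318 lower and an adjusted p of 0.00718 for B2M (limma). Replicate 2 had the larger size factor in both groups, a shared shift that the block takes out. The deposited values keep it, as both libraries of a group were scaled to the same total. Beyond that shift the deviations of same-numbered libraries were nearly uncorrelated over genes (0.0307, 13627 genes), and the labels do not say that a number marks a pair. Without a filter the other named genes lost their calls except HNRNPM and CD68. The cause of these shifts was not tested. Log2 fold changes near 0 changed sign with median-ratio scaling, with or without a filter: 0.036 for PSMB7, 0.043 for HFE, 0.06 for AXL and 0.061 for CANX. Leaving out 1 library gave ranges across 0 for PSMB7 (−0.146 to 0.054), HFE (−0.153 to 0.125), AXL (−0.12 to 0.077), CANX (−0.126 to 0.083), ERAP1 (−0.086 to 0.09) and EPCAM (−0.091 to 0.222). Summing haplotype copies of gene IDs was not run, as no ID in the table could be named as one. Such copies may be among the 4217 gene IDs that were left without a name. The members in the MHC had at most a few reads each, at which no difference was detectable, and why they had so few was not tested.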
